A study of Saccharomyces cerevisiae with 8 samples.

Results

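Purified 80S ribosomes of baker's yeast (Saccharomyces cerevisiae) with cycloheximide (CHX) at 10, 50 and 1000 µM were compared with ribosomes that had no addition, all probed in vitro with dimethyl sulfate (DMS). These 4 libraries were chosen by their titles out of the 8 in the series, and each condition has 1 library. Ribosomes were incubated with the drug and then treated with 90 mM DMS for 8 minutes. The other 4 libraries, whose values stand beside the results, are ribosomes with DMS and dimethyl sulfoxide (DMSO), with DMS and agelastatin A (AglA, a natural product) at 0.5 or 1.0 mM, and ribosomes without DMS. The labels name neither the strain nor the solvent of CHX, and they do not say whether the libraries came from separate ribosome preparations. The 3 doses are not replicates, and all 3 ratios share the same no-addition library, so no p-value is given and the spread between repeated measurements is unknown.

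The ribosomal RNAs (rRNAs) are the catalytic and structural core of the ribosome: 25S, 5.8S and 5S rRNA lie in the large subunit and 18S in the small one. DMS adds a methyl group to the pairing edge of A and C bases when that edge is free. The reverse transcriptase used here reads through the methyl group and leaves a mismatch, and the share of reads with a mismatch at a base is its mutation rate. CHX is an antibiotic that stops elongation; it sits in the large subunit's exit site (E site), where the end of the outgoing tRNA would lie, and C2764 of 25S lines that pocket.

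Of the 5475 nucleotides of the 4 rRNAs, those in 3 classes were searched for the same direction at every dose. Reactive nucleotides are the 514 A and C whose rates in the 7 DMS libraries averaged 0.5% or more (292 from 25S, 199 from 18S, 15 from 5.8S and 8 from 5S). Weakly reactive ones are the 784 A and C with a mean of 0.1% to under 0.5% and at least 2 times the rate without DMS (490 from 25S, 266 from 18S, 17 from 5.8S and 11 from 5S). The last class holds 492 G and U of at least 0.1% that passed the same multiple. A reactive nucleotide was counted when its log2 ratio to no addition had a size of at least 0.25 and the same sign at 10, 50 and 1000 µM; for the others the bound was 0.5. Ratios are of log2(rate + 0.001) for reactive and log2(rate + 0.0001) for other nucleotides, with the rate as a fraction and each library's median over the reactive nucleotides subtracted (centred).

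By this rule 2 of the 514 reactive nucleotides were lower at all 3 doses (0.389%) and 6 were higher (1.17%). Of the weakly reactive nucleotides 0 of 784 were lower (0%) and 5 were higher (0.638%), and of G and U 0 of 492 were lower (0%) and 1 was higher (0.203%). The 14 nucleotides are 11 of 25S and 3 of 18S; 5.8S and 5S had 0. The sequences around the 4 that the results turn on follow, with that of C93, the other cytidine listed for the CHX pocket. They are the RNA strand as the deposited table gives it, 5′ to 3′, with the nucleotide concerned in capitals, and the coordinates are those of the first annotated rDNA copy on the minus strand of sacCer3 (R64). The rDNA is repeated, so each position stands for all copies.
C2764 and A2762 of 25S (RDN25-1, chrXII:452398-452438, both in capitals): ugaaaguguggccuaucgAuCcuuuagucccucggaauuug
C959 of 25S (RDN25-1, chrXII:454203-454243): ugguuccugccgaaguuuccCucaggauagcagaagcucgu
C93 of 25S (RDN25-1, chrXII:455069-455109): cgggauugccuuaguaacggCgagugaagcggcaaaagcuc
C469 of 18S (RDN18-1, chrXII:457244-457284): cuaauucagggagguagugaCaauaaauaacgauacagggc

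Before centring, rates across all 4 rRNAs were lower in the CHX libraries. The median rate of the reactive nucleotides was 1.74% with no addition and 1.31%, 1.52% and 1.44% at 10, 50 and 1000 µM CHX, and 459 of 514 were lower at all 3 doses while 5 were higher. The median uncentred log2 ratio was -0.33, -0.17 and -0.23 at the 3 doses, so the lowest dose lay farthest below. By rRNA, 25S had -0.32, -0.17 and -0.23, 18S had -0.34, -0.16 and -0.22, 5.8S had -0.32, -0.20 and -0.27, and 5S had -0.30, -0.18 and -0.30. All 15 reactive nucleotides of 5.8S and all 8 of 5S were lower at every dose before centring.

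The size of this shift differed with reactivity class. Among DMS-dependent A and C it was -0.33, -0.17 and -0.22 at mean rates of 0.5% to 2% (292 nucleotides), -0.33, -0.16 and -0.24 at 2% to 5% (128) and -0.31, -0.17 and -0.26 at 5% and above (75). Weakly reactive nucleotides had -0.17, -0.08 and -0.09, and 478 of 784 were lower at all 3 doses. Here 0.001 was added to the rate in every class, not the 0.0001 used elsewhere for weakly reactive nucleotides. The larger constant makes ratios of low rates smaller, so part of the gap to the reactive classes comes from it. As deposited, the weakly reactive median rate was 0.189% with no addition and 0.159%, 0.175% and 0.175% at the 3 doses. The 29 bases that already had at least 0.5% without DMS had -0.02, -0.05 and -0.01. Their median rate was 0.805% without DMS and 1.03% with no addition, so much of it, though not all, did not need DMS. Centring therefore lifts nucleotides whose rate owes little to DMS. Rates as deposited stand beside many centred values below but not beside all, and a centred sign can differ from the uncentred one. The cause of the lower DMS-dependent rates was not tested, and dose and library cannot be told apart. Without centring, 84 reactive nucleotides would be lower by the rule and 0 higher.

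**Figure D1:**
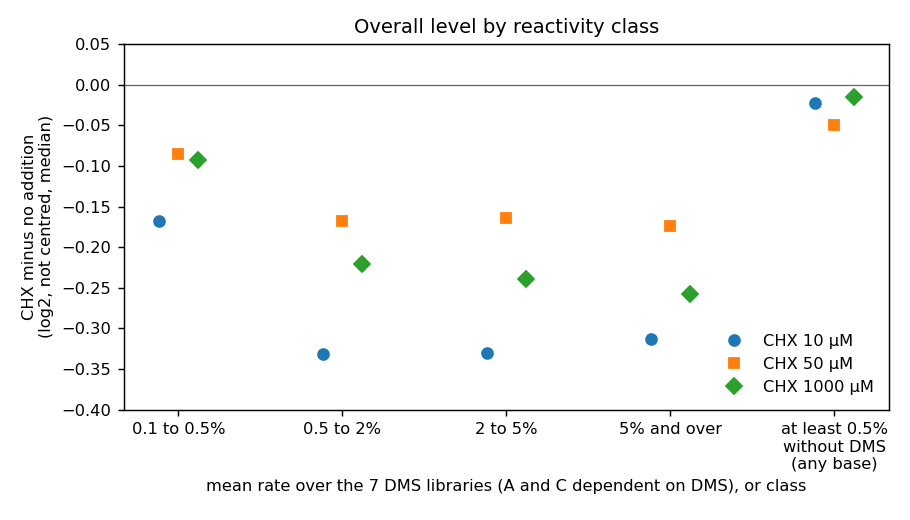
Median uncentred log2 ratio of each CHX library to no addition (y axis) by reactivity class (x axis), 1 point per dose. Every class here has 0.001 added to the rate, which makes the ratios of the weakly reactive class smaller. The classes from 0.5% upward lie between -0.33 and -0.16, the weakly reactive class between -0.17 and -0.08, and bases with at least 0.5% without DMS within 0.05 of 0.

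C2764 of 25S, at position 452418 of chromosome XII, stood far from every other reactive nucleotide. Its rate was 12.9% with no addition and 0.724%, 0.234% and 0.0633% at 10, 50 and 1000 µM CHX, against 12.7% with DMSO, 12% and 13.3% with AglA and 0.112% without DMS. Each higher dose had a lower rate, and the CHX libraries kept 5.60%, 1.81% and 0.489% of the no-addition rate. After subtraction of the rate without DMS, 12.8 percentage points were measured with no addition, and 0.612, 0.122 and -0.0483 at the 3 doses, so at 1000 µM the rate was below that without DMS. The centred log2 ratios were -3.61, -5.11 and -6.06, with the value at 1000 µM set largely by the added constant.

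C959, in domain II of 25S, was the other reactive nucleotide that was lower by the rule. Its rate was 9.21% with no addition and 4.91%, 5.36% and 5.20% at 10, 50 and 1000 µM, against 9.48% with DMSO and 7.94% and 8.27% with AglA. All 3 CHX rates were below all 4 others, and they kept 53.3%, 58.2% and 56.5% of the no-addition rate. C959 had about the same rate at each dose, whereas C2764 had a lower rate at each higher dose. The centred log2 ratios of C959 were -0.52, -0.59 and -0.55, the second of 514 by the smallest size over the doses.

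The neighbours of C959, looked at after its value was seen, did not lie as far below no addition. C961 had 0.926% with no addition and 0.714%, 0.746% and 0.676% at the 3 doses, a centred log2 ratio of 0.04, -0.10 and -0.14. The weakly reactive A951, A952, A965, A967, A970 and A972 had mean centred log2 ratios between -0.07 and 0.07. A962, 3 nucleotides away, lay above, with 0.132% and then 0.153%, 0.151% and 0.173%, or 0.60, 0.37 and 0.64 centred, which missed the bound at 50 µM. Its CHX rates overlapped those of the AglA libraries, at 0.144% and 0.160%, but its centred values lay above all other DMS libraries. The reactive C969, 10 nucleotides away, was higher by the rule (centred 0.52, 0.29 and 0.37) and is described below.

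Several reactive nucleotides lay just outside the lower bound. A109 of 5.8S, the lowest of that rRNA by mean log2 ratio, had 1.90% with no addition and 1.19%, 1.45% and 1.21% at the 3 doses (centred -0.25, -0.18 and -0.36), and missed the bound at 50 µM. A2562 of 25S had 11.8% and then 8.05%, 8.91% and 8.09% (centred -0.17, -0.22 and -0.28). A213 of 25S had 18% and then 12.5%, 13.9% and 12.9%. Among 18S nucleotides below 0 at every dose the lowest mean was that of A803, with 0.901% and then 0.526%, 0.719% and 0.703% (centred -0.30, -0.11 and -0.06), and in 5S it was C40, with 0.822% and then 0.583%, 0.674% and 0.644% (-0.06, -0.07 and -0.05). C40 thus differed by about as much as the median of its libraries.

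A single-dose count cannot be lower than the count for the 3 doses together, since the rule requires all 3. At 10 µM 8 reactive nucleotides were lower by at least 0.25 (1.56%) and 44 were higher (8.56%), at 50 µM 7 were lower (1.36%) and 22 higher (4.28%), and at 1000 µM 7 were lower (1.36%) and 36 higher (7%). Without C2764 the standard deviation of the centred log2 ratio to no addition was 0.14, 0.12 and 0.14 at the 3 doses, against 0.19 for DMSO and 0.28 for both AglA libraries. C2821 of 25S, at -4.24 and -4.06 with AglA, was kept and widens the AglA values, so those are not like for like with CHX. Between CHX libraries it was 0.13 for 50 against 10 µM, 0.14 for 1000 against 10 µM and 0.085 for 1000 against 50 µM.

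**Figure D2:**
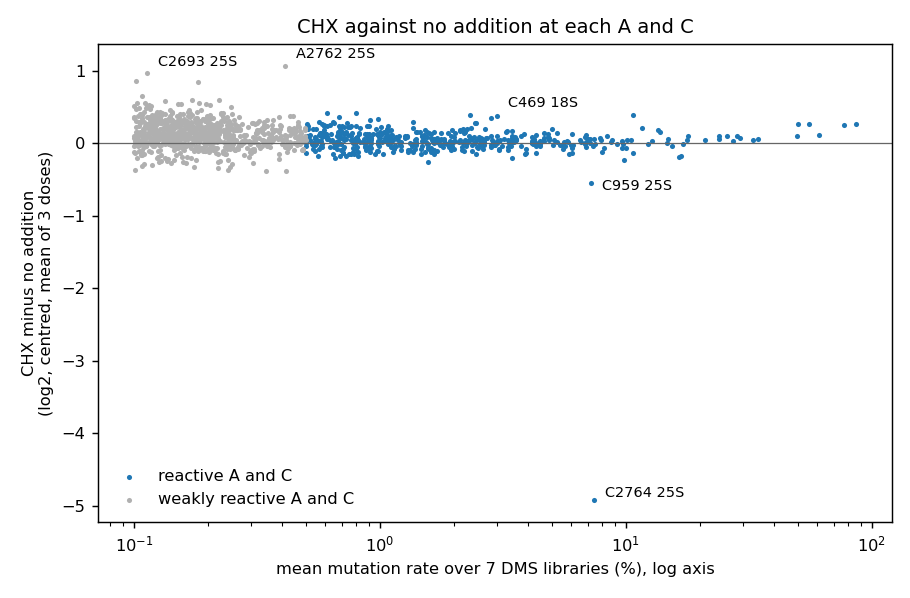
Mean centred log2 ratio of the 3 CHX libraries to no addition (y axis) against the mean rate over the 7 DMS libraries in percent (x axis, log scale) for reactive and weakly reactive A and C; 5 of the nucleotides that met the rule are labelled. C2764 lies alone at -4.92, C959 at -0.55, and A2762 tops the weakly reactive nucleotides at 1.07.

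Among weakly reactive nucleotides the largest difference was beside C2764. A2762, 2 nucleotides 5′ of it at position 452420 of chromosome XII, was higher with CHX. Its rate was 0.293% with no addition and 0.479%, 0.521% and 0.528% at 10, 50 and 1000 µM, against 0.357% with DMSO, 0.341% and 0.373% with AglA and 0.0301% without DMS. The 3 CHX rates were above all 4 others as deposited, and 1.64, 1.78 and 1.80 times the no-addition rate. The centred log2 ratios were 1.09, 1.00 and 1.10, and 0.69, 0.81 and 0.83 uncentred, and A2762 ranked first of the 784 by its smallest ratio over the doses. U2763, which separates A2762 from C2764, lay near the level without DMS, with 0.0643% with no addition and 0.0584%, 0.0352% and 0.0480% at the 3 doses, against 0.0481% without DMS.

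The other members of the CHX pocket list gave little to compare. C93 of 25S had 2.89% with no addition and 2.36%, 2.43% and 2.22% at the 3 doses, against 3.03% with DMSO and 2.69% and 2.99% with AglA. The CHX rates were below all 4 others as deposited, but the centred log2 ratios of 0.10, -0.06 and -0.11 overlapped those of DMSO and AglA, at 0.13, 0.02 and 0.16. G2793 had 0.135% with no addition and 0.119%, 0.142% and 0.191% at the 3 doses, and G2794 had 0.0468% and then 0.0461%, 0.0381% and 0.0443%. DMS reads guanosine poorly on its pairing edge, and G2793 had 0.138% without DMS. The pocket list and the other lists were written from memory; their bases match the table, but that alone does not place a position in the site.

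**Figure D3:**
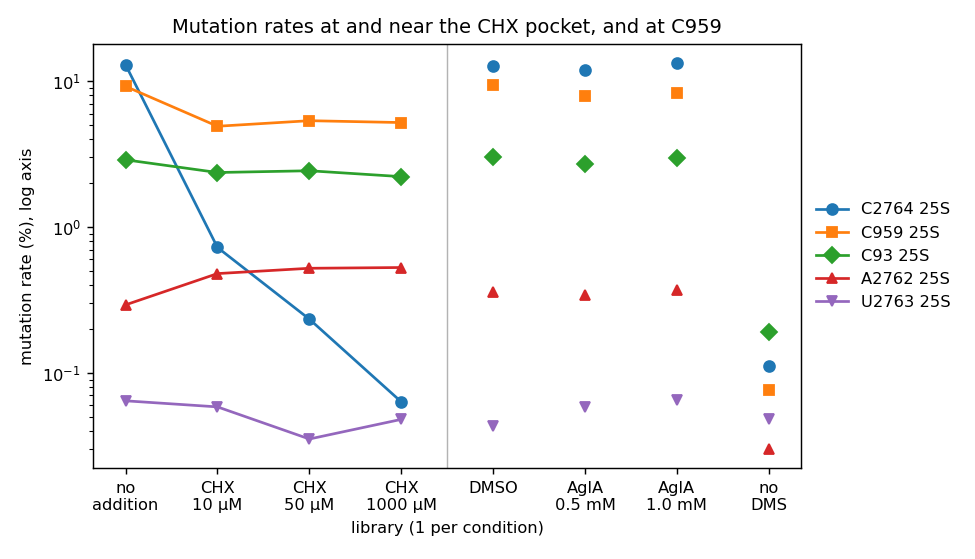
Mutation rate in percent (y axis, log scale) in each library (x axis, no addition and rising CHX dose, then DMSO, AglA and no DMS) at C2764, C959, C93, A2762 and U2763 of 25S, 1 library per point. C2764 is lower at each higher dose, C959 is near 5% at all 3, and A2762 is above the other libraries at all 3.

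The E site region around these nucleotides was otherwise close to the rest of its class. Within 50 nucleotides of C2764 lie 48 A and C, of which 3 were reactive and 18 weakly reactive. The reactive C2772 had 1.54% with no addition and 1.17%, 1.09% and 1.20% at the 3 doses (centred 0.00, -0.29 and -0.07), and A2808 had 1.03% and then 0.972%, 1.00% and 1.01% (0.31, 0.15 and 0.23). Of the 18 weakly reactive ones 0 were lower and 1, A2762, was higher by the rule. Their median centred log2 ratios of 0.19, 0.15 and 0.13 lay beside 0.15, 0.07 and 0.14 for all 784, and the median of their means was 0.15 centred but -0.14 without centring.

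Other weakly reactive nucleotides of that region missed the bound. A2715 had 0.146% with no addition and 0.0921%, 0.0892% and 0.0862% at the 3 doses (centred -0.22, -0.46 and -0.43), but DMSO and AglA libraries had 0.104%, 0.0912% and 0.0951%, so its groups overlapped. A2802 was lower, with 0.146% with no addition and 0.0855%, 0.102% and 0.104% at the 3 doses, below all 4 others at 0.132% to 0.169%, and with centred log2 ratios of -0.31, -0.29 and -0.18 that missed the bound. A2758, 6 nucleotides 5′ of C2764, had 0.0929% and then 0.105%, 0.0973% and 0.129% (centred 0.57, 0.25 and 0.71), with 0.122% in the DMSO library, so its groups overlapped. Around C93, 3 reactive and 8 weakly reactive nucleotides lie within 25 positions, and 0 met the rule.

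**Figure D4:**
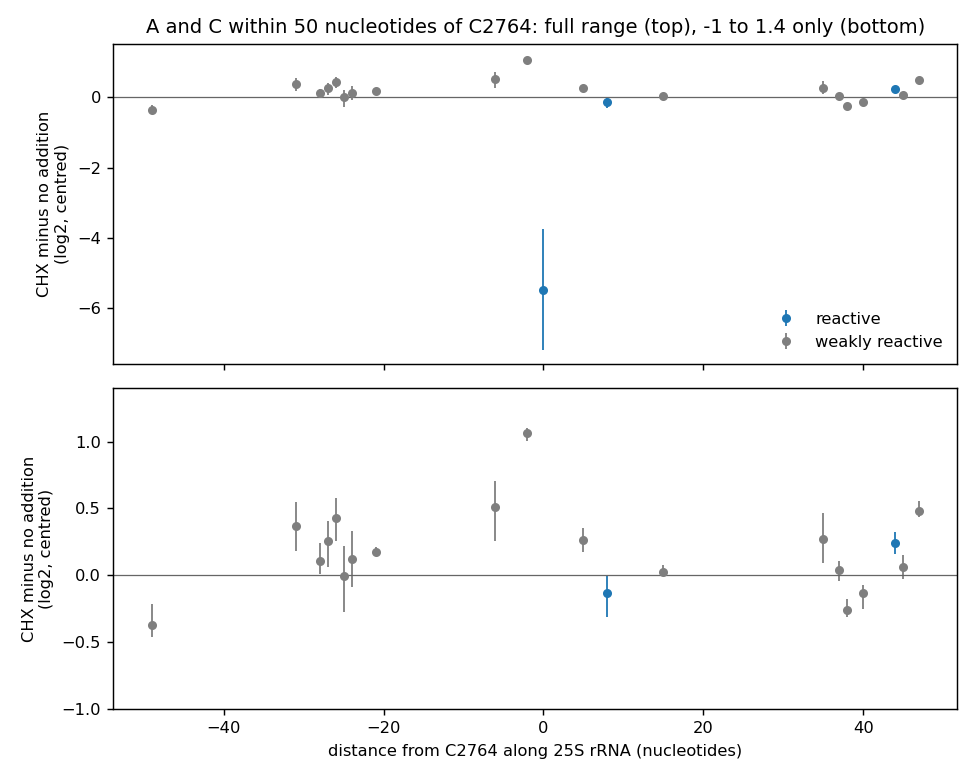
Mean (point) and range over the 3 CHX doses (bar) of the centred log2 ratio to no addition (y axis) for A and C within 50 nucleotides of C2764, by distance along 25S (x axis); the upper panel shows the full range and the lower one -1 to 1.4, and every point here has 0.0001 added. A2762, at -2, lies highest, at 1.07, and C2764, at 0, lies far below the rest.

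The other 4 weakly reactive nucleotides that were higher by the rule are A144, A1945, C2693 and A3294 of 25S. C2693, 71 nucleotides from C2764, had 0.0773% with no addition and 0.119%, 0.132% and 0.138% at the 3 doses, against 0.101% with DMSO and 0.101% and 0.125% with AglA. A144 had 0.125% and then 0.166%, 0.199% and 0.202%, against 0.178% with DMSO and 0.228% and 0.182% with AglA. A1945 had 0.0784% and then 0.0910%, 0.106% and 0.116%, against 0.119%, 0.123% and 0.120% in the DMSO and AglA libraries. A3294 had 0.0701% and then 0.0965%, 0.121% and 0.111%, against 0.111% with DMSO and 0.10% and 0.103% with AglA.

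At all 5 the no-addition rate was the lowest of the 7 DMS libraries, which held for 30 of the 784 weakly reactive nucleotides. The ratio to no addition therefore rests on that 1 library. Against the DMSO library 12 weakly reactive nucleotides were higher by the same bound, A2762 among them and none of the other 4. A2762 was the 1 of the 5 with all CHX rates above all 4 others as deposited, which held for 8 of all 784. After centring this held for 3 of the 5, and for 124 of all 784 (15.8%). The 1 uridine that was higher, U766 of 25S, had 0.123% with no addition and 0.132%, 0.157% and 0.164% at the 3 doses, against 0.137% with DMSO and 0.177% and 0.155% with AglA, and its CHX values overlap those of the other libraries.

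The 6 reactive nucleotides that were higher had small differences. On uncentred rates their mean log2 ratios were 0.08 to 0.14, and 0 of them passed 0.25 without centring. At 4 of the 6, A420 and A436 of 18S and A817 and C969 of 25S, the rate without DMS was 87.0%, 101%, 80.6% and 95.8% of that with no addition, which places them among the 19 of 514 reactive nucleotides where it was at least 50%. C969, for example, had 2.10% without DMS, 2.19% with no addition and 2.42%, 2.37% and 2.38% at the 3 doses. A436 had 0.661%, 0.655% and then 0.697%, 0.722% and 0.690%.

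The remaining pair was DMS-dependent. C469 of 18S had 2.97% with no addition and 3.28%, 3.18% and 3.10% at 10, 50 and 1000 µM, against 3.04% with DMSO, 2.61% and 2.72% with AglA and 0.0624% without DMS. Its CHX rates lay above all 4 others as deposited, as did those of A436 and A817, and its centred log2 ratios were 0.52, 0.28 and 0.32. The adjacent A470, weakly reactive and outside the rule at 50 µM, had 0.186% and then 0.227%, 0.223% and 0.220%, against 0.189% with DMSO and 0.163% and 0.164% with AglA, again without overlap. A2398 of 25S, 3 nucleotides before A2401 of the peptidyl transferase centre, had 2.69% and then 2.65%, 2.86% and 3.04%, against 2.38% with DMSO and 3.07% and 3.15% with AglA, so its groups overlapped and the 10 µM rate was below that with no addition.

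**Figure D5:**
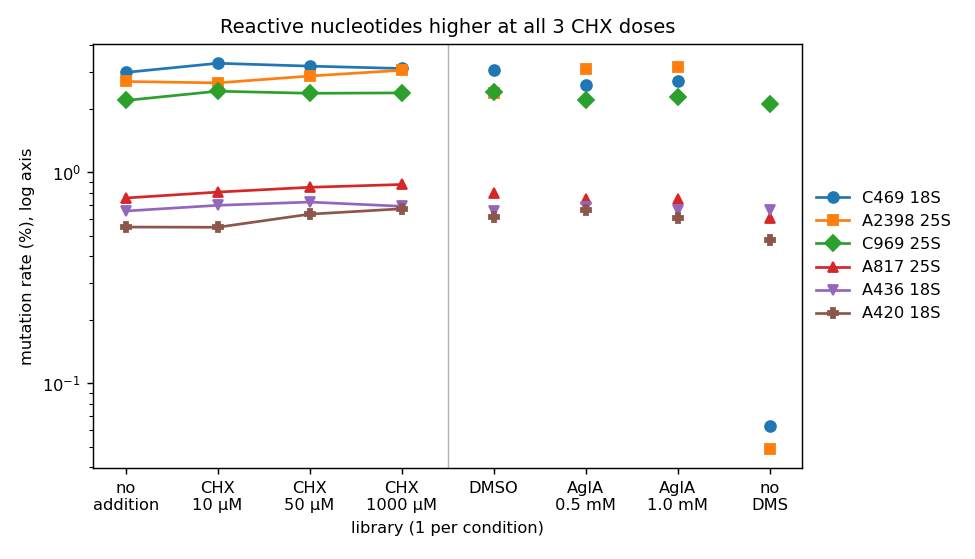
Mutation rate in percent (y axis, log scale) in each library (x axis) at the 6 reactive nucleotides that were higher by the rule, 1 library per point. C469 of 18S lies above the other libraries at all 3 CHX doses, and A420, A436, A817 and C969 keep at least 80.6% of the no-addition rate without DMS.

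A second way to count used the other DMS libraries as well. After centring, all 3 CHX values lay below those of no addition, DMSO and both AglA libraries at 32 reactive (6.23%) and 13 weakly reactive nucleotides (1.66%), and above them at 76 (14.8%) and 124 (15.8%). As deposited the balance was the other way, with 288 reactive and 174 weakly reactive nucleotides below all 4 and 3 and 8 above. The direction of these counts therefore depends on centring. The 32 and 13 that were below after centring were also below as deposited, C2764 and C959 among them, and the 3 and 8 above as deposited were also above after centring, C469, A470 and A2762 among them.

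The functional centres outside the E site showed no nucleotide past the rule. Among all reactive nucleotides 0.389% were lower and 1.17% higher by it, and among all weakly reactive ones 0.638% were higher. With so few members in these centres, the lack of a call is near those shares and says little about them. The peptidyl transferase centre, which forms the peptide bond, had 6 reactive members with median centred log2 ratios of 0.06, -0.06 and -0.05 at the 3 doses, against 0.05, 0.02 and 0.03 over all 514. C2821 there had 5.68% with no addition and 3.98%, 4.23% and 3.92% with CHX (centred -0.12, -0.23 and -0.26), far from the 0.180% and 0.221% it had with AglA. In the sarcin-ricin loop, which elongation factors contact, 4 reactive nucleotides had medians of 0.02, -0.02 and -0.09. As deposited these 4 lay below all other DMS libraries at every dose, as did 288 of all 514. In helix 69, a bridge between the subunits, 2 had medians of 0.17, 0.14 and 0.18. Their uncentred log2 ratios were negative, at -0.16, -0.03 and -0.03 for A2256 and -0.26, -0.05 and -0.12 for C2257. In the decoding centre of 18S, 3 had medians of 0.03, 0.04 and 0.02.

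Bases that the cell itself modifies on the pairing edge had medians of 0.33, 0.20 and 0.25. After centring 3 of these 4 lay above all other DMS libraries, as did 76 of all 514 reactive nucleotides (14.8%). As deposited, A645 had 87.0% with no addition and 86.2%, 86.6% and 86.1% at the 3 doses, A2142 had 56.0% and then 52.8%, 57.3% and 57.0%, and A1782 of 18S had 10.5% and then 11.7%, 12% and 10.4%. The fourth, A1781 of 18S, had 0.611% and then 0.517%, 0.563% and 0.554%, below all other DMS libraries as deposited, while its centred values overlapped them. Without DMS A645, A2142, A1782 and A1781 had 87.6%, 56.1%, 11.0% and 0.558%, and centring lifts such rates. Before centring, A1782 at 10 and 50 µM and A2142 at 50 and 1000 µM were already above no addition, and the other values were below it.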

How the data were processed

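Mutation rates of rRNA in 8 libraries were taken from 1 deposited table, as a fraction per nucleotide made by the authors, and are printed as percentages. Per the labels' protocols, fragmented rRNA was ligated to a linker, copied with TGIRT-III, and full-length cDNA was circularised and amplified. Cutadapt, Bowtie2 and sacCer3 are listed in the submitters' processing notes, with neither version nor role, and filters are not stated there. Since the table carries no read depth, intervals for counting error could not be computed.

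Ratios, classes and bounds are as defined in the results. They were computed with Python 3.11.15, numpy 2.4.6 and pandas 2.3.3, drawn with matplotlib 3.10.9, and the counting step was tested on simulated data. That test required recovery only of the largest planted changes. It lowered every base alike in the CHX libraries, so it does not cover bases whose rate owes little to DMS. The members and lists were chosen with earlier results of these data known. Named nucleotides were the pocket and structural lists, the A and C around C2764, those past the rule and the most different in each rRNA; those near a bound, A470 and the neighbours of C959 were chosen after their values were seen. Alternatives were other constants, filters, centring, subtraction of the rate without DMS, reference libraries and bounds, and leaving out each CHX library. Coordinates are from the R64 gene table; no genome sequence was used here.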

Additional observations from a re-analysis of the deposited data

How the results depend on the processing

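With 1 library per condition and unknown read depth, low rates have no stated precision. No paired analysis was possible because each condition has 1 library. C2764 kept its direction in 9 alternatives (-5.58 to -3.23), as did C959 (-0.83 to -0.54) and A2762 (0.73 to 1.15), and A1945 came as low as 0.05. The reactive lower count of 2 was 84 without centring, 21 with DMSO as the reference, 4 with the mean of both and 1 at a bound of 1; leaving out 1 dose gave 2 to 3. The reactive higher count of 6 was 0 with 0.01 added, 3 at 2% and above, 243 with no filter, 0 without centring, 28 against DMSO, 13 against both, 0 at bounds of 0.5 and 1, and 8 to 15 with 1 dose left out (15 without 10 or 50 µM). The weakly reactive lower count of 0 was 9 without centring, 2 against DMSO and 2 at a bound of 0.25. The higher count of 5 was 1 at 0.2% and above, 14 at 0.05%, 2 without centring, 12 after subtraction of the rate without DMS, 12 against DMSO, 3 against both, 1 at a bound of 1, 69 at 0.25, and 5 to 12 with 1 dose left out (8 without 10 µM, 12 without 50 µM). For G and U the lower count of 0 was 2 without centring, 1 after subtraction, 1 at 0.25, and 0 to 1 with 1 dose left out (1 without 1000 µM). The higher count of 1 was 0 with 0.001 or 0.0005 added, 0 without centring, 7 after subtraction, 4 against DMSO, 0 against both, 0 at a bound of 1, 48 at 0.25, and 2 to 9 with 1 dose left out (2 without 10 µM, 9 without 50 µM, 7 without 1000 µM). The median around C2764 of 0.15 was -0.14 without centring and 0.14 to 0.18 with 1 dose left out. The cause of these shifts was not tested.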
